A study of Mus musculus with 27 samples.

Results

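Macrophages sorted from the colon lamina propria of WT mice were compared with Ly6C+ monocytes sorted from the same tissue in the same treatment, on the 5 arrays labelled WT macrophage (array numbers 11 to 15) and the 5 labelled WT monocyte (1 to 5), 10 of the 27 arrays of the series. Members were chosen by their labels for genotype, tissue and cell type alone. All 10 samples came from WT mice given 2% dextran sodium sulfate (DSS), an irritant that injures the colon epithelium, and the study's methods give 6 days in the drinking water for mice on a C57BL/6 background, 8 to 22 weeks old and matched by age and sex. The comparison therefore holds no cell from untreated colon. The study asked how the methyl-CpG binding protein Mbd2 acts in colon inflammation, and its other colon arrays include the same cell types from *Mbd2*-/- mice, which lack the gene in every cell. By the deposited record each replicate was made up of 1 to 5 mice, while the methods give up to 10. The methods describe sorting of CD45+Ly6G-Siglec-F-CD11b+ cells, as Ly6C+ for monocytes and as Ly6C-MHC-II+F4/80+ for macrophages, so that levels of Ly6C, F4/80, MHC class II, CD11b, Ly6G and Siglec-F belong to the gates.

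Blood monocytes enter the gut wall continuously through the chemokine receptor CCR2, and in the lamina propria they lose Ly6C, gain MHC class II and become macrophages over several days. In healthy gut the end product is a macrophage with high CX3CR1 that engulfs bacteria and dead cells, makes IL-10 and responds weakly to bacterial products. In colitis many cells accumulate at the monocyte end of this path. The comparison sets sorted monocytes and sorted macrophages from DSS treated colon side by side, with Mbd2 intact. It does not trace these macrophages to these monocytes.

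Bead intensities were corrected for background, quantile normalised and taken to log2, and levels below are on that scale unless a fold is named. A detection p-value compares a probe with the negative control probes of its array, and a probe was tested where this was under 0.05 on at least 5 of the 10 arrays. Calls needed an adjusted p under 0.05 in limma and a difference of 1 or more on the log2 scale, which is 2-fold, in at least 1 probe of the gene, and a gene is said to have risen or fallen in macrophages only where it was called. The values given are those of the gene's brightest tested probe, with SD over n = 5 arrays a group. Normalised values of the 10 arrays ran from 4.14 to 14.15.

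Between 16024 and 17604 probes were detected on the monocyte arrays and between 16495 and 17966 on the macrophage arrays. The root mean square difference between pairs of arrays was 0.36 to 0.49 within monocytes, 0.38 to 0.77 within macrophages and 0.52 to 0.96 between them. Macrophage array 12 stood apart on the first principal component, at 70.73 against 9.71 to 26.66 for the other 4 macrophage arrays. Without it 304 genes were called higher in macrophages and 193 lower, so that the number of lower calls differed by more than 1.5 times. WT monocyte arrays lie in other sets of 6 columns of the deposited table than WT macrophage arrays, so that an effect of the set and the cell type cannot be told apart. With the set of columns as a random block in limma 616 genes were called, 338 higher and 278 lower.

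**Figure D1:**
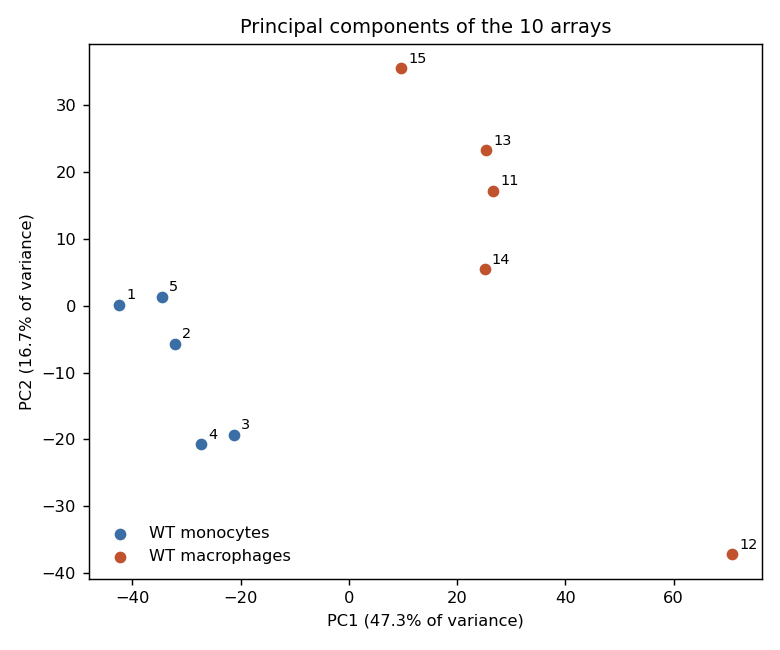
The 10 arrays on the first 2 principal components of their normalised log2 intensities, which hold 47.3% and 16.7% of the variance (no units). Each point is 1 array with its label number. Monocytes and macrophages separate on PC1, and macrophage array 12 lies at 70.73.

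The labels were checked against markers of both cell types. Of 8 monocyte markers 7 were tested, and 7 of these 7 fell in macrophages. Of 12 macrophage markers 12 were tested, 6 rose and 0 fell. *Ly6c1*, which encodes the antigen of the monocyte gate, read 11.65 to 12.88 on the monocyte arrays and 7.69 to 9.08 on the macrophage arrays. F4/80, encoded by *Adgre1*, was 12.25 ± 0.11 in macrophages and 11.35 ± 0.18 in monocytes and stayed below the 2-fold limit. Transcripts of defining macrophage genes were thus present in the monocyte gate as well, with all 12 markers detected on all 5 arrays of both groups. A figure legend of the study gives the sorted monocytes as F4/80- and as either negative or positive for MHC-II. These terms refer to surface protein, while the values here are RNA. In sorted populations fewer cells of a type and less RNA per cell cannot be told apart.

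Over 11834 genes tested, 637 (5.38%) were called, 341 (2.88%) higher in macrophages and 296 (2.5%) lower. Percentages given below with a gene list are shares of its tested members, to be set against these 2.88% and 2.5%. The median log2 fold change over all tested genes was 0.03. Higher calls made up 53.5% of called genes, and 41.2% when arrays were scaled to a common median in place of quantile normalisation. A change of 4-fold or more, a log2 fold change of at least 2, was seen for 63 genes that rose and 51 that fell. The groups did not overlap on any array in the brightest probe of 2127 tested genes (18%). Counted over probes, the share was 16.6% of those tested and 83.9% of those called. A call itself favours groups that do not overlap, so the second share is no separate result.

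**Figure D2:**
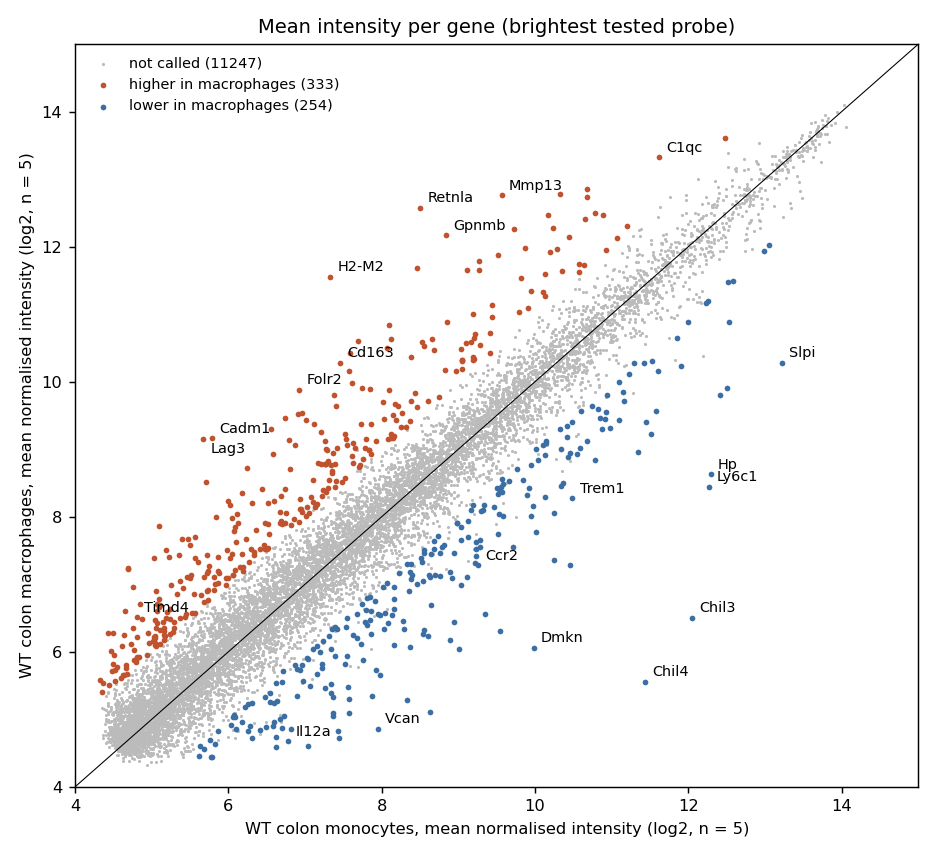
Mean normalised log2 intensity of each tested gene in WT monocytes (x axis) and WT macrophages (y axis), 5 arrays each, for the brightest tested probe. Coloured points are genes whose brightest probe was called (2.81% of tested genes higher and 2.15% lower), and the line marks equal levels. *Chil3* and *Chil4* lie farthest below the line and *H2-M2* and *Retnla* farthest above it.

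Genes of circulating monocytes fell. Of the 22 tested genes of a list of monocyte genes, 16 fell and 0 rose, against 2.5% of all tested genes, and the median log2 fold change of the list was -1.69. *Ly6c1*, an antigen of the sort, fell 14.2-fold and is no finding. *Ccr2*, the receptor that brings monocytes out of the marrow and into tissue, read 9.35, 9.49, 9.61, 8.99 and 8.86 in monocytes and 7.16, 7.14, 7.65, 7.46 and 6.99 in macrophages. All macrophage arrays lay below all monocyte arrays, and the level fell 3.95-fold (log2 fold change -1.98, SE 0.18, adjusted p 2.7e-08).

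Other genes of the list fell as well. *Hp*, which encodes the haemoglobin scavenger haptoglobin, fell 12.6-fold, from 12.29 ± 0.31 to 8.63 ± 0.70. *Vcan*, which encodes the matrix proteoglycan versican, fell 8.5-fold and was detected on only 3 of 5 macrophage arrays. *F10*, the gene of coagulation factor X, fell 5.22-fold. *S100a4*, a calcium-binding protein of motile cells, and *Ifitm6*, an interferon-induced membrane protein of myeloid cells, changed by -2.23 and -2.29 on the log2 scale. *Plac8* was close to the 2-fold limit at -1.03, and without monocyte array 5 or macrophage array 12, 13 or 15 its change was -0.972, -0.993, -0.985 and -0.999 and was not called. Among the list's genes that were not called were *Lyz2*, the lysozyme of myeloid cells, at -0.17, and *F13a1*, the coagulation factor XIII A chain, at -0.44.

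The largest fall of all was that of the chitinase-like genes *Chil3* and *Chil4*, which encode the secreted lectins Ym1 and Ym2 of alternatively activated myeloid cells. *Chil3* read 11.97, 12.44, 10.95, 12.51 and 12.39 in monocytes and 6.00, 6.90, 5.97, 7.44 and 6.23 in macrophages. *Chil4* read 11.60, 11.99, 10.13, 11.85 and 11.57 in monocytes and 4.64, 5.67, 5.24, 6.37 and 5.87 in macrophages. Monocyte array 3 was the lowest monocyte array for both, yet it lay far above every macrophage array. *Chil3* fell 46.7-fold (log2 fold change -5.55, SE 0.32, adjusted p 3.8e-11) and *Chil4* 58.6-fold (-5.87, SE 0.32, adjusted p 1.7e-11). The genes are neighbouring copies whose sequences are nearly alike, so a probe of one may also bind the other's transcript and the values of the pair are not independent. This likeness reaches into the 250 bases upstream of their start sites, shown here from RefSeq on GRCm38.p6 (minus strand, chr3:106167565-106167814 for *Chil3* and chr3:106219480-106219729 for *Chil4*), with the bases that are identical in an alignment of the pair in capitals.
Chil3: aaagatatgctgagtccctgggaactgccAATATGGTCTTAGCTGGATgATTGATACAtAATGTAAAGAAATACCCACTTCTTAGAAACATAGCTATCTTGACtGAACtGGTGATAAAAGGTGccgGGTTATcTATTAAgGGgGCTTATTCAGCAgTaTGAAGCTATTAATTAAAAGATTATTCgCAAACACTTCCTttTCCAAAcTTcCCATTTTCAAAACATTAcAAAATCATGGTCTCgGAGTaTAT
Chil4: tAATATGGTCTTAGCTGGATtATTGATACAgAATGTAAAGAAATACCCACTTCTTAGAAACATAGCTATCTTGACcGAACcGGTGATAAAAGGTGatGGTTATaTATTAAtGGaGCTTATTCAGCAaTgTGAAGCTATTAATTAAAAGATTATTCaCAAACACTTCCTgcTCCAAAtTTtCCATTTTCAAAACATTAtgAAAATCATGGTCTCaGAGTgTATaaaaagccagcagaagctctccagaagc
In this alignment 201 of 223 columns, gaps included, held identical bases (90.1%).

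The other genes among the 15 that fell most encode proteins of several kinds. *Dmkn*, a secreted protein named dermokine and best known from skin, was 9.98 ± 0.26 in monocytes and 6.06 ± 0.32 in macrophages, 15.2-fold lower. *Slpi*, an inhibitor of neutrophil elastase, fell 7.69-fold but stayed at 10.28 ± 0.41. *Mcemp1*, a membrane protein of mast cells and monocytes, fell 7.44-fold, and *Ambp*, the precursor of a protease inhibitor, fell 5.78-fold. *Cd177*, a surface glycoprotein of neutrophils, and *Prtn3*, the granule protease proteinase 3, fell 9.38-fold and 6.53-fold. The unnamed loci LOC386144 and LOC100043402 were also called lower, at -3.05 and -2.43, with SDs among monocyte arrays of 1.21 and 1.20. Of 12 tested neutrophil markers 6 fell (50%) and 2 rose (16.7%), or 1 rose without monocyte array 1, 2 or 3 or macrophage array 11, 12 or 14. By the brightest probe 10 changes were negative and 2 positive, from -3.23 to 1.32. The summed intensity was 5170 to 11900 in monocytes and 2260 to 4210 in macrophages. *S100a8*, a subunit of the antimicrobial protein calprotectin, was 11.45 ± 0.72 in monocytes and 9.40 ± 0.77 in macrophages. *Ngp*, a neutrophil granule gene, was detected on no array, and the part of neutrophil transcripts in the falls above was not tested.

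Genes of tissue macrophages rose together. Of 27 tested genes of a list of resident and gut macrophage genes 20 rose and 0 fell, against 2.88% of all tested genes, and the list's median was 1.72. *Cd163*, the receptor that clears haemoglobin bound to haptoglobin, read 7.38, 7.50, 7.67, 7.65 and 7.04 in monocytes and 10.22, 10.35, 10.44, 9.78 and 10.62 in macrophages. The arrays did not overlap, and the rise was 7.12-fold (log2 fold change 2.83, SE 0.28, adjusted p 1.0e-07). *Fcrls*, an Fc receptor-like scavenger protein, rose 9.36-fold to 11.68 ± 0.33. *Folr2*, a folate receptor of resident macrophages, and *Lyve1*, a hyaluronan receptor, rose 7.77-fold and 6.71-fold. *Timd4*, the receptor for phosphatidylserine on dead cells that marks long-lived gut macrophages, read 4.69 to 4.98 in monocytes and 6.22 to 6.90 in macrophages. It rose 3.27-fold and remained a dim transcript in both groups.

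Of 28 tested core macrophage genes, shared by macrophages of many tissues, 9 rose (32.1%) and 0 fell (median 0.48). *Cx3cr1*, the fractalkine receptor of gut macrophages, read 9.34, 8.10, 8.49, 8.83 and 7.88 in monocytes and 10.50, 10.63, 10.49, 10.60 and 10.75 in macrophages. The SD was 0.58 over monocyte arrays and 0.10 over macrophage arrays, the groups did not overlap and the rise was 4.19-fold (log2 fold change 2.07, SE 0.26, adjusted p 2.8e-06). *Cd81*, a tetraspanin, rose 4.49-fold. Other core genes were already high in monocytes. *Csf1r*, the receptor for the macrophage growth factor M-CSF, was 12.30 ± 0.32 in monocytes and 12.49 ± 0.14 in macrophages. *Fcgr1*, the high-affinity IgG receptor CD64 used to gate gut macrophages, was 9.65 ± 0.27 and 9.72 ± 0.13. Neither passed the test, with adjusted p of 0.55 and 0.84.

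**Figure D3:**
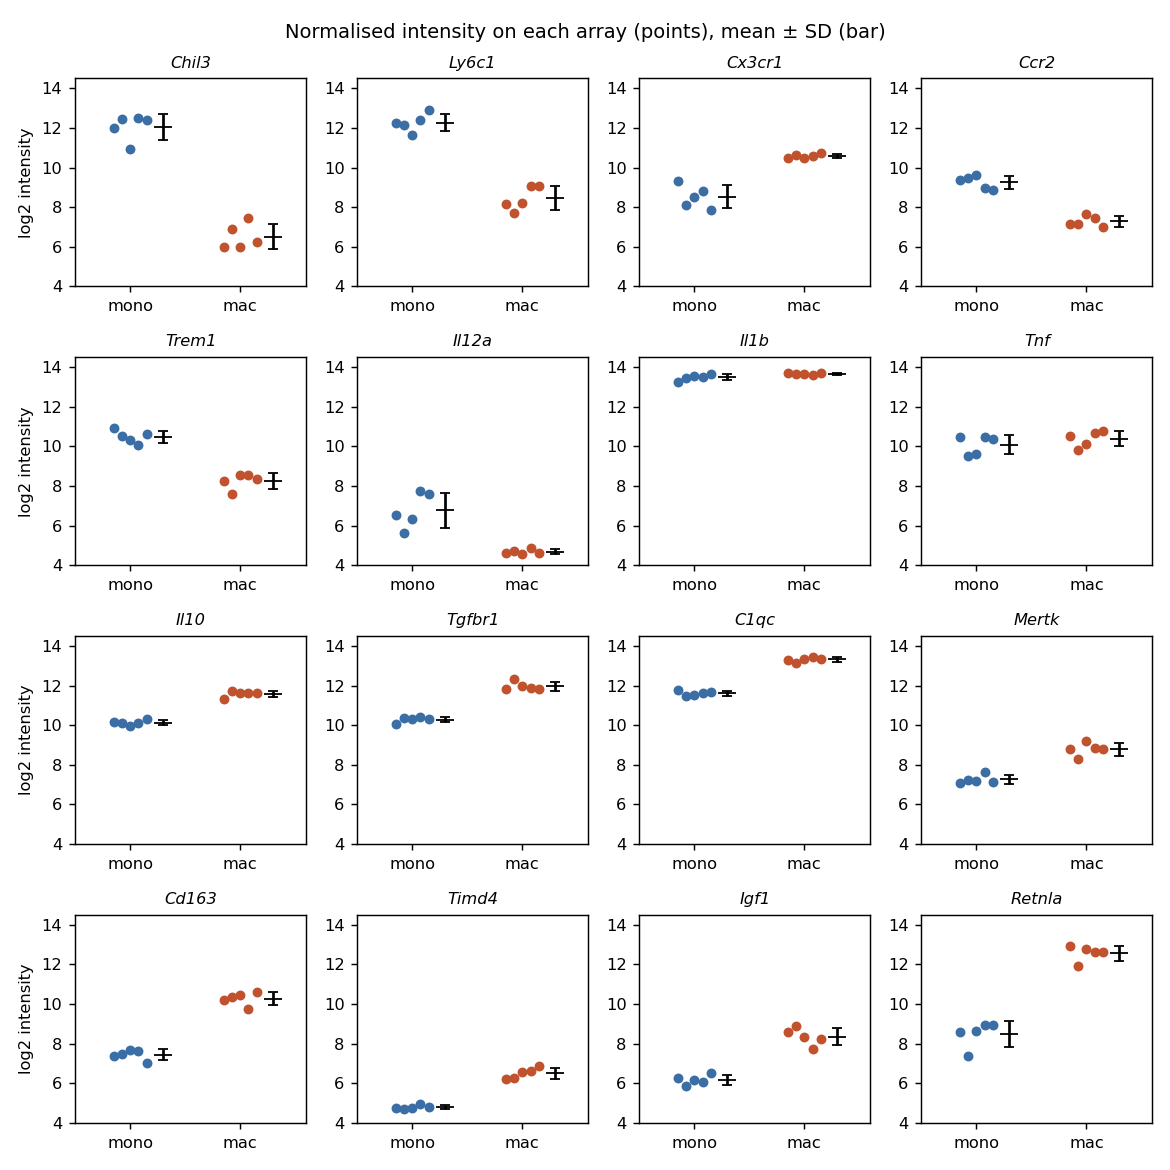
Normalised log2 intensity (y axis) of 16 genes on each of the 5 WT monocyte and 5 WT macrophage arrays (points), with mean and SD (bars). *Il1b* and *Tnf* overlap between groups, and the other 14 genes do not.

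Uptake receptors were higher in macrophages. These proteins bind dead cells, lipoproteins and microbes for engulfment, and 9 of 18 tested members rose (50%) and 0 fell (median 1.07). *Mertk*, a receptor kinase for dying cells, read 7.08, 7.24, 7.21, 7.65 and 7.16 in monocytes and 8.79, 8.31, 9.22, 8.83 and 8.78 in macrophages. Its relative *Axl* was 10.89 ± 0.24 in monocytes and 12.46 ± 0.26 in macrophages, and *Gas6*, the ligand that bridges both receptors to phosphatidylserine, was 8.55 ± 0.26 and 10.53 ± 0.52. All 3 genes rose with no overlap between groups, by 1.52, 1.57 and 1.98 on the log2 scale. *Mrc1*, the mannose receptor CD206, rose 3.37-fold. *Stab1*, the scavenger receptor stabilin-1, rose 4.57-fold by its brightest probe, while its other tested probe, which was not called, gave -0.82, so that the direction depended on the probe. *Lrp1*, a large lipoprotein receptor, was not called at -0.64.

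Genes of C1q and of some other complement proteins rose. Macrophages make C1q, the recognition unit of the classical pathway with chains A, B and C. Of 16 tested complement genes 6 rose (37.5%) and 0 fell (median 0.58). *C1qa* read 10.57, 10.17, 10.24, 10.57 and 10.67 in monocytes and 12.63, 11.37, 12.39, 12.03 and 12.30 in macrophages. *C1qb* read 12.63, 12.30, 12.44, 12.56 and 12.47 in monocytes and 13.60, 13.62, 13.62, 13.54 and 13.63 in macrophages. *C1qc* read 11.77, 11.47, 11.52, 11.64 and 11.66 in monocytes and 13.29, 13.14, 13.37, 13.44 and 13.37 in macrophages. The 3 subunits rose by 1.70 (SE 0.36), 1.12 (SE 0.15) and 1.71 (SE 0.19), with adjusted p of 0.0011, 6.4e-06 and 5.7e-07 and no overlap on any of the 10 arrays. *C1qb* in macrophages was within 1 log2 unit of the top of the scale at 14.15. *Vsig4*, a receptor for complement fragments on resident macrophages, was detected on 2 of 5 monocyte arrays and rose 3.87-fold, and *C2* and *C4b*, components of the classical pathway, rose 2.71-fold and 2.28-fold. *C3*, the central component, was not called at -0.63.

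The C1q genes are neighbours on chromosome 4, and the 250 bases upstream of *C1qb* and *C1qc* are shown because the subunits rose together (RefSeq, GRCm38.p6, minus strand, chr4:136886201-136886450 and chr4:136892915-136893164), with the core letters GAGGAA of sites for PU.1, the factor that myeloid cells depend on, in capitals where they occur on either strand.
C1qb: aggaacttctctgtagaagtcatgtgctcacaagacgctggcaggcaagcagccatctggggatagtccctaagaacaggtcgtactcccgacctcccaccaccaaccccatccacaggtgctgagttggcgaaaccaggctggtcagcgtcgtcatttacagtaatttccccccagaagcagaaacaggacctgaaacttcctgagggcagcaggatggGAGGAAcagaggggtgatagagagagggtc
C1qc: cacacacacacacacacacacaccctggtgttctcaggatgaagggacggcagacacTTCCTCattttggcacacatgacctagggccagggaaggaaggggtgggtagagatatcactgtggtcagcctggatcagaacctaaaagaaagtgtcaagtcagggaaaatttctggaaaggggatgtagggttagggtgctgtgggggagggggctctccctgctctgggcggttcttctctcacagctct
The letters GAGGAA lay 30 bases before the start of *C1qb*, and in the reverse sense, as TTCCTC, 193 bases before that of *C1qc*. They occurred in 23.3% of 32851 RefSeq windows of the same length, and the MAF core letters TGCTGAC, which occurred in 3.81% of windows, were in neither. A match of letters is a description of the window and not a binding site.

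Lysosomal genes were shifted upward with few calls. Of 50 tested members 43 had a positive change, 7 rose (14%) and 0 fell, and the median was 0.41 against 0.03 over all genes. The largest rise was that of *Gpnmb*, a lysosomal glycoprotein of lipid-laden macrophages, which read 8.35, 8.88, 8.75, 9.01 and 9.17 in monocytes and 12.08, 12.70, 12.33, 11.58 and 12.17 in macrophages. The groups lay far apart, with a log2 fold change of 3.34 (SE 0.26, adjusted p 3.0e-09), and its other tested probes gave 1.72, which was called, and 0.94, which was not. *Cd63*, a tetraspanin of late endosomes, rose 4.17-fold, with 1.40 (called) and 1.17 (not called) by its other tested probes. *Acp5*, tartrate-resistant acid phosphatase, rose 3.3-fold and *Lipa*, which splits cholesterol esters, 2.69-fold. *Ctsa*, the protease cathepsin A, rose 4.34-fold by its brightest probe, and its 4 other tested probes, all dim, changed by -0.15 to 0.09. Among Fc receptors for IgG, *Fcgrt*, the neonatal Fc receptor that recycles IgG, rose 3.31-fold. *Fcgr2b*, the inhibitory receptor, was 0.26 higher in macrophages by its brightest probe (not called) and fell 2.14-fold by a dim probe, a call that was lost without monocyte array 2 or macrophage array 12, when 0 members of the list fell.

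No gene of the main antigen presentation lists was called. Of 11 tested MHC class II genes, an antigen of the macrophage gate, 0 were called at a median of 0.06, and 1 rose without monocyte array 5 or macrophage array 13. By a figure legend of the study, cells with and without surface MHC-II were both sorted as monocytes. *H2-Ab1*, a class II chain, was 14.03 ± 0.12 in monocytes and 14.09 ± 0.09 in macrophages, at the top of the scale, where a difference could not be resolved. *Cd74*, the invariant chain, was 13.86 ± 0.07 and 13.80 ± 0.15. Of 15 tested MHC class I genes and 11 co-stimulatory genes 0 were called, with medians of -0.23 and 0.03. A class I gene fell without macrophage array 15, and a co-stimulatory gene fell without monocyte array 3 or 4 or macrophage array 13, 14 or 15. Apart from these lists, *H2-M2*, a class I-like gene of myeloid cells, was the gene with the largest rise. It read 7.18, 6.80, 7.35, 8.12 and 7.19 in monocytes and 11.23, 11.82, 11.90, 11.31 and 11.50 in macrophages, an 18.7-fold difference (log2 fold change 4.22, SE 0.41, adjusted p 7.9e-08). *Lag3*, a ligand of MHC class II known as a checkpoint of T cells, was 5.67 ± 0.40 in monocytes and 9.15 ± 0.65 in macrophages.

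*Il12a* and *Il23a* fell. Of 16 tested inflammatory cytokine genes 2 fell (12.5%, against 2.5% of all tested genes) and 1 rose (6.25%, against 2.88%), with a median of -0.38. *Il12a*, the p35 subunit of IL-12, read 6.55, 5.65, 6.35, 7.76 and 7.57 in monocytes and 4.62, 4.72, 4.56, 4.89 and 4.60 in macrophages, where it was detected on 3 of 5 arrays. It fell 4.29-fold (log2 fold change -2.10, SE 0.31, adjusted p 2.4e-05), and monocytes varied among themselves by over 2 log2 units. *Il23a*, the p19 subunit of IL-23, fell 2.63-fold, from 7.21 ± 0.22 to 5.82 ± 0.50. *Ifnb1*, which encodes interferon-beta, rose 2.86-fold, from 5.75 ± 0.28 to 7.26 ± 0.51. Without background correction these 3 genes were not called, at -0.95, -0.76 and 0.85. With a background offset of 50 the change of *Il23a* was -0.997 and was not called either. *Il12b*, the p40 subunit shared by IL-12 and IL-23, was detected on no array.

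The main effector cytokines of colitis were not called. *Il1b*, the gene of IL-1 beta, was near the top of the scale in both groups, at 13.26, 13.43, 13.57, 13.52 and 13.66 in monocytes and 13.69, 13.67, 13.64, 13.59 and 13.69 in macrophages. The groups overlapped, the log2 fold change was 0.17 (SE 0.09, adjusted p 0.165), and values this near the top of the scale limit what could be resolved. *Tnf* was 10.09 ± 0.50 in monocytes and 10.38 ± 0.38 in macrophages (0.29, SE 0.29, adjusted p 0.54). *Il6* was 8.37 ± 0.16 and 8.11 ± 0.51 (-0.26, SE 0.26, adjusted p 0.52). *Il18*, a cytokine released by inflammasomes, was lower on every macrophage array, at 8.65 ± 0.15 against 9.51 ± 0.15, but its change of -0.86 (adjusted p 2.0e-05) stayed below the 2-fold limit. Under median scaling the change of *Il18* was -1.02 and was called. A p above the threshold does not show that levels were equal.

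*Il10* and *Tgfbr1* rose. Of 25 tested anti-inflammatory signals 4 rose (16%) and 1 fell (4%, near the 2.5% of all tested genes), and the median was -0.07. *Il10*, the cytokine that restrains gut inflammation, read 10.14, 10.10, 9.96, 10.14 and 10.31 in monocytes and 11.32, 11.75, 11.61, 11.61 and 11.64 in macrophages. *Tgfbr1*, a signalling receptor for TGF-beta, read 10.08, 10.37, 10.30, 10.40 and 10.30 in monocytes and 11.82, 12.35, 11.97, 11.87 and 11.82 in macrophages. Replicates were tight and did not overlap, with rises of 2.74-fold (adjusted p 1.5e-07) and 3.2-fold (adjusted p 1.4e-09). *Tgfbr2*, the partner receptor, rose 2.26-fold by its brightest probe, but its other tested probe gave 0.24 (adjusted p 0.388), and under median scaling the brightest gave 0.96, neither a call. *Tgfb3*, a ligand, rose 2.2-fold with overlapping groups. The receptors *Il10ra* and *Il10rb* were not called, at -0.34 and 0.11, and neither was the ligand *Tgfb1* at -0.68. The 1 gene that fell was *Tnfrsf1b*, a TNF receptor, at -1.03, which was not called without monocyte array 5 (-0.99) or macrophage array 12 (-0.76). The number that fell was then 0, and it was 2 without monocyte array 4 or macrophage array 11 or 14 and 3 without macrophage array 13 or 15.

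Of 14 tested CC chemokines 3 rose (21.4%) and 0 fell, and 1 rose without macrophage array 15. *Ccl7*, a ligand of CCR2, read 10.24, 10.01, 9.78, 10.31 and 10.51 in monocytes and 12.75, 12.30, 12.22, 12.20 and 12.90 in macrophages, 4.94-fold higher with no overlap (adjusted p 4.0e-08). *Ccl2*, another CCR2 ligand, and *Ccl3*, an inflammatory chemokine, rose 2.36-fold and 2.12-fold with overlapping groups, and without macrophage array 15 neither was called, at 0.98 and 0.95. Of 12 tested CXC chemokines 2 rose (16.7%) and 0 fell. *Cxcl13*, which draws B cells, rose 5.11-fold and *Pf4*, platelet factor 4, rose 5.73-fold. Without monocyte array 5 or macrophage array 11, 4 rose, and 1 fell without monocyte array 3. *Cxcl2*, a neutrophil attractant, was high in both groups at 12.46 ± 0.11 and 12.68 ± 0.13 and was not called. Of 12 tested chemokine receptors *Cx3cr1* and *Cxcr5*, the receptor for CXCL13, rose (16.7%) and *Ccr2* fell (8.33%). The call of *Cxcr5* was lost without background correction (0.75) and with a background offset of 50 (0.95). Its 2 other tested probes, at 0.48 and 0.94, were not called. Without monocyte array 3 or macrophage array 14 or 15, 2 receptors fell.

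*Trem1* and *Trem3* fell. Of 23 tested Toll-like receptors, adaptors and related receptors 1 rose (4.35%, against 2.88% of all tested genes) and 2 fell (8.7%, against 2.5%), with a median of 0.10. *Trem1*, which amplifies inflammatory signalling, read 10.91, 10.53, 10.30, 10.09 and 10.60 in monocytes and 8.23, 7.60, 8.58, 8.58 and 8.36 in macrophages. It fell 4.64-fold with no overlap (adjusted p 8.4e-09), and its relative *Trem3* fell 3.6-fold. *Tlr12*, a receptor for protozoan profilin, rose 3.65-fold from a level near the bottom of the scale, and 2 genes of the list rose without monocyte array 5. *Tlr4*, the receptor for bacterial lipopolysaccharide, was not called at 0.15, and *Tlr2*, the receptor for bacterial lipoproteins, was 12.76 ± 0.11 in monocytes and 12.27 ± 0.16 in macrophages, below the limit of a call. Of 11 tested inflammasome genes 1 fell (9.09%) and 0 rose. The 1 that fell was *Mefv*, which encodes pyrin, 2.14-fold. *Nlrp3*, the best known sensor of the group, was not called at -0.57.

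Some interferon-induced genes fell. Of 26 tested type I interferon genes 7 fell (26.9%, against 2.5% of all tested genes) and 0 rose, 24 had a negative change and the median was -0.49. *Oas3*, which senses double-stranded RNA, was 6.59 ± 0.49 in monocytes and 5.24 ± 0.35 in macrophages. *Irf7*, the factor that amplifies interferon production, was 9.94 ± 0.42 and 8.76 ± 0.47. Neither gene's groups overlapped, and the log2 fold changes were -1.35 and -1.18. *Ifi205*, a DNA-binding interferon-induced gene, fell by 1.43 with overlapping groups. Of its 2 other tested probes neither was called (-1.42 and -1.47). Without macrophage array 12, 4 members fell, as with a background offset of 50, and without background correction 1 fell. Of 12 tested GTPase genes induced by interferon-gamma 1 fell (8.33%) and 12 had a negative change. When single arrays were left out 0 to 2 fell. The number was 0 without monocyte array 4 or 5 or macrophage array 11 or 13, and 2 without monocyte array 2 or 3. Replicates were uneven within both groups. The summed intensity of the GTPase list was 17886 to 19478 on monocyte arrays 1 to 3. It was 47978 and 32827 on arrays 4 and 5. On macrophage arrays 11 to 13 it was 13644 to 15995, and 25759 and 22255 on arrays 14 and 15. Arrays 4, 5, 14 and 15 lie in other sets of columns than arrays 1 to 3 and 11 to 13. The cause was not tested.

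**Figure D4:**
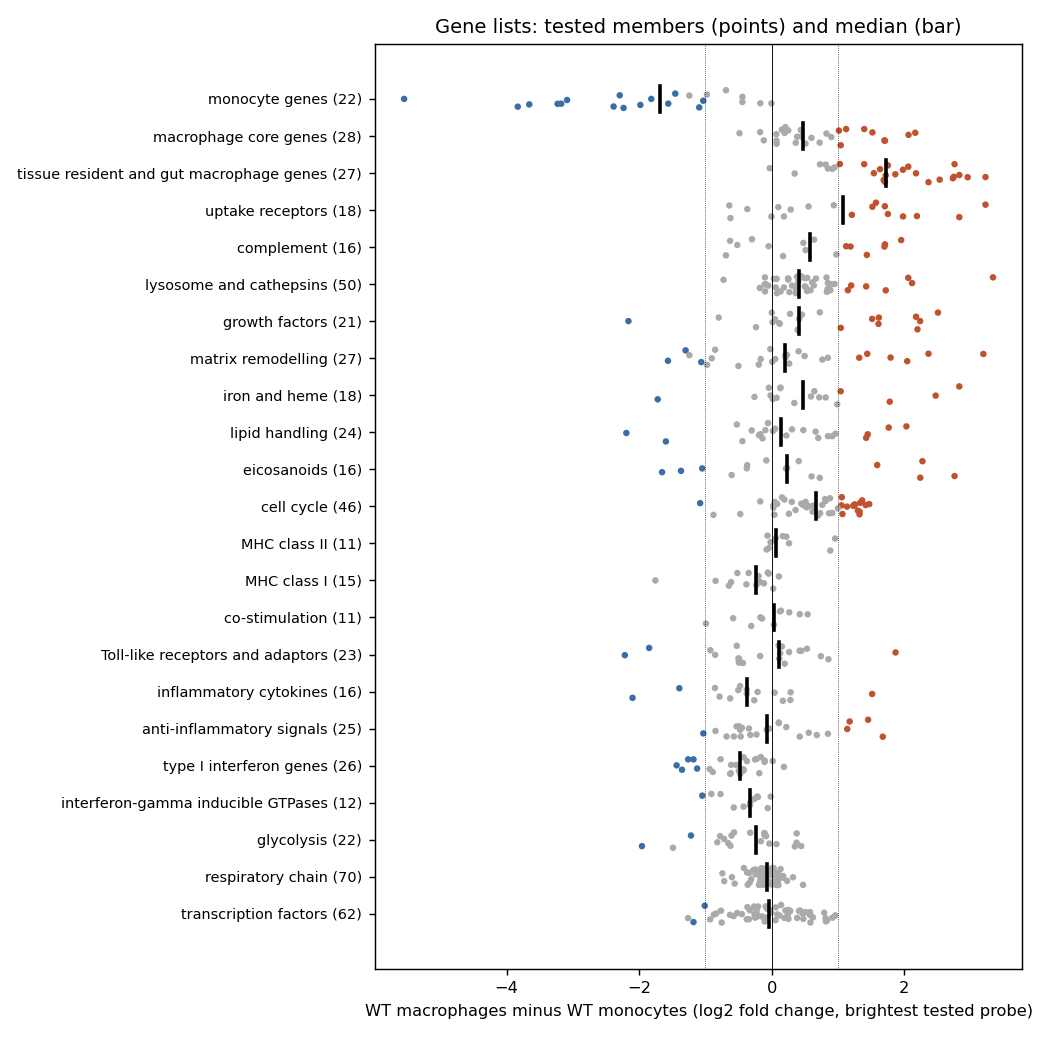
Log2 fold change of WT macrophages minus WT monocytes (x axis) for the tested members of 23 gene lists (points, with the number tested after each name). Coloured points are members whose brightest probe was called, bars are medians and dotted lines mark 2-fold. Resident macrophage genes have a median of 1.72 and monocyte genes of -1.69.

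Of 62 tested transcription factor genes 0 rose and 2 fell, with a median of -0.04, and the 3.23% that fell lay near the 2.5% of all tested genes. The lineage factors *Spi1* (PU.1) and *Maf* were not called, at -0.23 and 0.51. *Nr1h3*, the oxysterol receptor LXR-alpha, and *Pparg*, a lipid receptor, were higher on every macrophage array by 0.96 and 0.91, just below 2-fold. The 2 that fell were *Irf7* and *Nab1*, a co-repressor of EGR factors, at -1.01, with -0.55, -0.92 and -0.34 by its other tested probes, none called. The number that fell was 1 without monocyte array 1, 3 or 4 or macrophage array 11 or 12, 3 without monocyte array 2 or macrophage array 13 and 5 without macrophage array 15, with *Nab1* between -0.944 and -0.997 where it was not called. Without monocyte array 1, 4 or 5 or macrophage array 13 or 15, *Nr1h3* was called, at 1.00 to 1.08. Of 18 tested genes of DNA methylation and the NuRD repressor complex, with which Mbd2 acts, 1 rose (5.56%). The number that fell was 0, or 1 without monocyte array 2. The gene that rose was *Uhrf1*, which guides methylation at replication, 2.67-fold.

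Of 22 tested glycolysis genes 3 fell (13.6%, against 2.5% of all tested genes) and 0 rose, with a median of -0.24. *Slc16a3*, which exports lactate, was 6.82 ± 0.35 in monocytes and 4.86 ± 0.17 in macrophages, 3.88-fold lower. *Pkm*, pyruvate kinase, was lower on every macrophage array by 0.66 and was called through a dimmer probe (-1.91). *Eno1*, an enolase, fell by 1.22, and without macrophage array 12, which read 8.72, its change was -0.82 and was not called. In that case 1 member fell. Of 70 tested genes of the respiratory chain 0 were called at a median of -0.07, and 1 fell without monocyte array 3.

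Iron and lipid genes were called in both directions. Of 18 tested iron and heme genes 4 rose (22.2%) and 1 fell (5.56%), with a median of 0.47. *Slc40a1*, the iron exporter ferroportin, rose 3.44-fold and *Cp*, ceruloplasmin, which oxidises the exported iron, 5.56-fold, with 0.74 by its other tested probe, not called. The 1 that fell was *Lcn2*, which withholds iron from bacteria and is also a neutrophil gene. Of 24 tested lipid genes 4 rose (16.7%) and 2 fell (8.33%), with a median of 0.14. *Lpl*, lipoprotein lipase, rose 4.09-fold and *Ch25h*, which makes 25-hydroxycholesterol, changed by 1.77. *Apoc1*, an apolipoprotein, was 7.92 ± 0.25 in monocytes and 5.73 ± 0.28 in macrophages, and *Apoc2*, the activator of lipoprotein lipase, fell 3.02-fold, with -0.74 by its other tested probe, not called.

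Some cell cycle genes rose. Of 46 tested members 15 rose (32.6%, against 2.88% of all tested genes), 1 fell, 30 were not called and 42 had a positive change (median 0.66). *Nusap1*, a spindle protein, read 5.84, 5.83, 5.39, 5.70 and 5.87 in monocytes and 7.19, 7.60, 6.70, 7.34 and 7.18 in macrophages, a 2.77-fold rise with no overlap (adjusted p 1.3e-06). *Tk1*, which makes thymidine nucleotides for replication, *Mcm6*, a subunit of the replicative helicase, and *Birc5*, the mitotic protein survivin, rose 2.58-fold, 2.52-fold and 2.51-fold by their brightest probes. Other tested probes gave 0.78 for *Tk1*, 0.77 for *Mcm6* and 0.91 and 0.92 for *Birc5*, none called, and 1.17 for *Mcm6*, which was called. *Mki67*, the usual marker of cycling cells, was 0.62 higher and was not called. The gene that fell was *Ccnd3*, a G1 cyclin, at -1.08, and without macrophage array 15 its change of -0.98 was not called, and neither was that of its other tested probe (-0.32). The count depended on the correction for background, with 4 members higher when none was applied.

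Matrix, growth factor and adhesion genes were called in both directions. Of 27 tested matrix genes 6 rose (22.2%) and 4 fell (14.8%), with a median of 0.21, and 2 fell without macrophage array 12. *Mmp13*, a collagenase, was 9.57 ± 0.39 in monocytes and 12.76 ± 0.18 in macrophages, *Mmp12*, the macrophage elastase, rose 5.16-fold and *Plau*, urokinase, 4.13-fold. *Timp1*, an inhibitor of the MMP proteases, fell 2.96-fold, and *Adam8*, a membrane protease of leukocytes, fell 2.46-fold. Of 21 tested growth factors 8 rose (38.1%) and 1 fell (4.76%), with a median of 0.41. *Igf1*, a growth factor for epithelium and stroma, read 6.29, 5.85, 6.16, 6.08 and 6.51 in monocytes and 8.59, 8.89, 8.33, 7.73 and 8.23 in macrophages, 4.53-fold higher with no overlap. *Gdf15*, a stress-induced hormone, rose 5.69-fold and *Pdgfb*, which recruits pericytes, 4.72-fold. The 1 that fell was *Inhba*, which encodes activin A, 4.47-fold. Of 24 tested adhesion genes 2 rose (8.33%) and 5 fell (20.8%), or 3 without macrophage array 12. *Vcam1*, a ligand for integrins of leukocytes, rose 5.8-fold, and *Itgb7* and *Itgal*, integrin chains that guide homing, fell 3.00-fold and 2.34-fold.

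Genes of alternative activation were called in both directions. Of 22 tested members 5 rose (22.7%) and 5 fell (22.7%), with a median of 0.01. *Retnla*, the resistin-like molecule RELM-alpha induced by IL-4, read 8.57, 7.38, 8.63, 8.96 and 8.95 in monocytes and 12.92, 11.95, 12.76, 12.61 and 12.63 in macrophages, 16.9-fold higher (log2 fold change 4.08, SE 0.31, adjusted p 2.0e-09). *Arg1*, the arginase that competes for the substrate of nitric oxide synthase, was 8.54 ± 0.42 in monocytes and 7.05 ± 0.17 in macrophages. *Chil3* and *Chil4* belong to the same list and fell, while *Retnla* rose. Among 16 tested eicosanoid genes 4 rose (25%) and 3 fell (18.8%), with a median of 0.22. *Hpgds*, which makes prostaglandin D2, *Ltc4s*, which makes leukotriene C4, and *Ptgs1*, the constitutive cyclooxygenase, rose 6.77-fold, 4.84-fold and 4.73-fold. *Ltb4r1*, the receptor for the attractant leukotriene B4, fell 3.15-fold, and *Ptges*, which makes prostaglandin E2, 2.58-fold. Of 26 tested genes of the phagocyte oxidase and of antioxidant enzymes 1 rose and 3 fell (median -0.23). These were 3.85%, near the 2.88% of all tested genes, and 11.5%, against 2.5%. The 1 that rose was *Hvcn1*, a proton channel that sustains the oxidase, at 1.48.

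Genes named in the study for these cells included, besides those above, *Trem2*, a lipid sensor of macrophages, which was 9.10 ± 0.25 in monocytes and 9.95 ± 0.43 in macrophages and was not called at 0.85. *Lyz1*, a lysozyme, gave 13.46 ± 0.05 and 13.61 ± 0.08 by its brightest probe, which was not called, and 8.80 and 11.02 by another probe, which was called at 2.22. *Lyz1* and *Lyz2* are near-identical copies, and the probes may not tell them apart. *Ido1*, which degrades tryptophan, was 5.97 ± 1.03 and 5.75 ± 0.58 and *Il1a* 10.00 ± 0.50 and 9.78 ± 0.89, neither of them called. Other genes with very large rises were *Cadm1*, an adhesion molecule that is also a marker of dendritic cells, 10.4-fold, *Fcna*, the lectin ficolin A, 7.5-fold, *Apol7c*, an apolipoprotein L of phagocytes, 7.15-fold, *Cd209f*, a lectin of the DC-SIGN family, 6.97-fold, and *Dnase1l3*, a secreted nuclease, 6.66-fold.

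Markers of other cell types were read on the same arrays. A single called marker was 9.09% of the tested dendritic or T cell markers and 8.33% of the B and plasma cell markers. Of 11 tested markers of conventional dendritic cells *Cadm1* rose and 0 fell, and the summed intensity of the list was 1730 to 2250 in monocytes and 2640 to 3470 in macrophages. Without macrophage array 13, 2 of these markers rose. Of 8 eosinophil markers on the array 2 were tested, and the summed intensity of all 8 was 895 to 1340 in monocytes and 2160 to 3840 in macrophages. *Siglecf* and *Epx* were detected on no array, and *Ear2*, an RNase that macrophages also make, rose 3.28-fold. Epithelial markers summed to 14200 to 28500 in monocytes and 12200 to 36000 in macrophages, 0 of 20 tested were called and *Epcam* was detected on no array. B and plasma cell markers summed to 25000 to 27400 and 20700 to 24800, with 1 of 12 called in each direction, and the rise of *Cd79b* (1.05, and 0.21 by its other tested probe) was lost without monocyte array 3 or macrophage array 11 or 12. T cell markers summed to 1400 to 1760 and 1870 to 2290, with 1 of 11 called higher, or 2 without monocyte array 5 or macrophage array 12 or 14. Stromal, endothelial, erythroid, NK and mast cell lists had 0 members called, and 1 endothelial marker rose without monocyte array 3, 4 or 5 or macrophage array 13 or 14. The part of these cells in the results was not tested.

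The same comparison was made in *Mbd2*-/- mice, on 5 monocyte and 5 macrophage arrays that the WT comparison did not use but that were normalised and fitted with it. There 750 of 11821 tested genes were called (6.34%), 378 higher in macrophages (3.2%) and 372 lower (3.15%). Of the 341 genes that rose in WT 258 also rose in *Mbd2*-/- cells, 75.7% of the WT list and 68.3% of the *Mbd2*-/- list. Of the 296 that fell in WT 187 also fell, 63.2% and 50.3%. Of 780 called WT probes that were tested there 737 had a change of the same sign and 0 were called in the opposite one. The *Mbd2* probe itself was detected on 0 of these 20 arrays, so the genotype labels could not be checked by it.

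**Figure D5:**
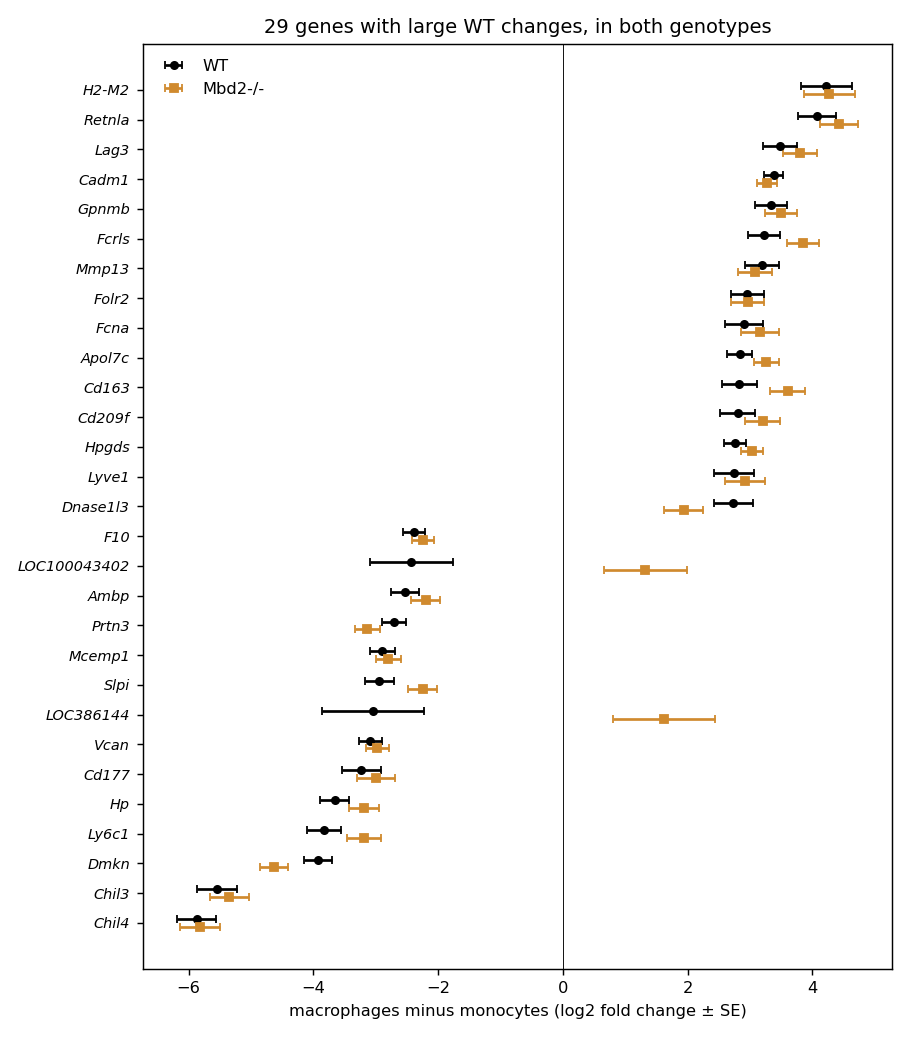
Log2 fold change with SE (x axis) of macrophages minus monocytes in WT (black circles) and *Mbd2*-/- mice (orange squares), 5 arrays per cell type and genotype, for 29 of the genes with the largest WT change, 15 higher and 14 lower in macrophages. In 27 of 29 genes both genotypes lie on the same side of 0, and the exceptions are the unnamed loci LOC386144 and LOC100043402.

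The difference of the change between genotypes was tested as an interaction. Of 12269 tested genes 4 were called (0.0326%), 5 passed the adjusted p alone (0.0408%), and 1144 had an unadjusted p under 0.05. *Spink2*, a protease inhibitor, changed by -0.68 in WT and by -2.34 in *Mbd2*-/- cells, an interaction of -1.67 (SE 0.26, adjusted p 0.017). *Cebpe*, a transcription factor of granulocyte maturation, changed by 0.47 in WT, where the groups overlapped, and by -0.88 in *Mbd2*-/- cells, an interaction of -1.35 (adjusted p 0.017). Group means of this probe were 4.82 to 5.70, near the bottom of the scale. The other tested probe of *Cebpe* was not called in the interaction. A dim probe of *Ptges* gave -1.45 (adjusted p 0.032) and *Tspan10*, a tetraspanin, gave 1.43 (adjusted p 0.017). The loci LOC386144 and LOC100043402 gave 1.63 and 1.32 in *Mbd2*-/- cells, neither called and of the opposite sign to WT, and their interaction was not called (adjusted p 0.29 and 0.3). The probes of *Ptges* and *Tspan10* were not detected widely enough in WT to be tested there. *C1qa* rose by 1.70 in WT and was not called in *Mbd2*-/- cells at 0.82, but the difference of -0.88 was not significant (adjusted p 0.74). The number of interaction calls ranged from 0 to 7 when single arrays were left out, 0 without WT monocyte array 3 or WT macrophage array 14 and 7 without WT macrophage array 12.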

How the data were processed

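RNA of sorted colon cells was hybridised to Illumina MouseWG-6 BeadChips. The authors deposited bead intensity (AVG_Signal) and a detection p-value per probe and array, without normalisation or background subtraction, with 936 negative control probes. The submitters' processing notes name lumi and limma, with versions not given in the sources used here. The table has 3 further signal columns, which match no sample here and were not used.

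From the deposited intensity, log2 values were computed over the 25 colon arrays by normexp with negative controls (offset 16) and quantile normalisation. Of 45281 probes 36692 carried an accession, 27655 of these matched RefSeq (GRCm38.p6, used for names and upstream sequences), and 3817 were named through an older symbol. One limma model (R 4.3.3, limma 3.58.1, data.table, version 1.17.8) over 6 groups gave all tests, two-sided, with Benjamini-Hochberg adjustment within a comparison. The fit was tested on simulated data. For a gene with several probes the brightest tested probe over the 10 WT arrays was used.

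Arrays were grouped by their labels. The methods give separate experiments of sorted populations, but the labels do not say which array came from which. Experiment is therefore not in the model, and its part in the results was not tested. The p-values measure the spread between these samples, each of 1 or more mice, and the number of arrays limits the precision. Named genes were up to 15 per direction with the largest change and no overlap, up to 4 called members per direction of each gene list with the members needed to explain it, genes named in the study and genes of the interaction. Members and lists were chosen with earlier results of these data known. Alternatives covered background correction, normalisation, filters, thresholds, array weights, blocks, other probes and leaving out each array. A few genes are not reported here.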

Additional observations from a re-analysis of the deposited data

Results flagged for a closer look

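For each named gene the highest or lowest of the 5 arrays of a group was set against the rest by its gap to the nearest array as a share of the whole range (Dixon's ratio). Chance flags about 1 in 20 groups, and 20 of 292 groups were past the limit for 5 arrays.

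Macrophage array 12 accounted for 7 of them. It was high on PC1 (ratio 0.722), *Ctsa* (cathepsin A, 12.69 against 11.65 to 11.93, ratio 0.727) and *Tgfbr1* (12.35 against 11.82 to 11.97, ratio 0.717). It was low for *Eno1* (8.72 against 10.57 to 10.77, ratio 0.906), *Apoc2* (6.09 against 7.87 to 8.22, ratio 0.839), *Il1a* (ratio 0.786) and *Mki67* (ratio 0.712).

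Macrophage array 11 was low for *Tgfb3* (5.52 against 6.41 to 6.61, ratio 0.816), *Lipa* (ratio 0.78) and *Lrp1* (ratio 0.754). Macrophage array 14 was low for *Mrc1* (ratio 0.8) and *Lyz1* (ratio 0.729) and high for *Mcemp1* (ratio 0.729).

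Among monocytes, array 1 was high for *Ccl3* (11.25 against 10.41 to 10.56, ratio 0.822) and *Hp* (ratio 0.743) and low for *Mefv* (ratio 0.777). Monocyte array 2 was low for *Retnla* (7.38 against 8.57 to 8.96, ratio 0.758) and high for *Pf4* (ratio 0.775). Monocyte array 3 was low for *Chil4* (10.13 against 11.57 to 11.99, ratio 0.771), and array 4 was high for *Mertk* (ratio 0.716).

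The macrophage minus monocyte change differed between genotypes by limma's interaction test for 4 genes. The *Mbd2*-/- change minus the WT change was -1.67 for *Spink2*, -1.45 for a probe of *Ptges*, -1.35 for *Cebpe* and 1.43 for *Tspan10*.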

How the results depend on the processing

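Genes called between WT macrophages and monocytes numbered 497 to 751 when single arrays were left out, 304 to 361 of them higher and 193 to 396 lower, with the fewest without macrophage array 12. In *Mbd2*-/- cells the ranges were 689 to 862, 358 to 422 and 324 to 440, and the interaction gave 0 to 7. Members that fell numbered 14 to 16 for monocyte genes, 4 to 9 for interferon genes and 5 to 7 for neutrophil markers. Members that rose numbered 8 to 9 for core and 19 to 21 for resident macrophage genes, 6 to 7 for complement, 9 to 10 for uptake, 7 to 8 for lysosome, 7 to 8 for growth factors and 13 to 18 for the cell cycle.

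Without background correction 287 WT genes were called (156 higher, 131 lower) and 344 in *Mbd2*-/- (182, 162), with 4 cell cycle genes higher, 1 interferon gene lower and 0 interaction genes. With an offset of 50 these were 395 (205, 190), 466 (236, 230), 7, 4 and 2. With no minimum fold 3226 (1979, 1254) and 3700 (1976, 1741) were called, with 18 core, 29 lysosome and 30 cell cycle genes higher and 16 interferon genes lower. At a log2 fold change of at least 2, 114 (63, 51) and 120 (73, 47) remained in number, with 10 monocyte genes and 3 neutrophil markers lower, 10 resident, 2 core, 3 uptake, 3 lysosome and 4 growth factor genes higher, and 0 for complement, cell cycle, interferon and interaction. limma's treat gave 125 (87, 38) and 176 (114, 62), and 0 interaction genes. The interaction also gave 0 under median scaling, cyclic loess, an adjusted p under 0.01 and a fit of the compared groups alone, and 7 with array weights, so its 4 calls depended on these settings. The causes were not tested.

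Array numbers of the cell types differ by 10, and deviations of such WT pairs correlated at 0.47, -0.02, 0.06, 0.43 and 0.24. Other pairs of a WT monocyte and a WT macrophage array gave -0.39 to 0.38, so that 0.47 and 0.43 were the highest of all. Some list sums went with the numbers for arrays 1 and 11. Erythroid markers summed to 5725 and 5834 on these and to 818 to 3410 on the other WT monocyte and macrophage arrays. Stromal markers summed to 2773 and 2764 on arrays 1 and 11 and to 4859 to 7333 on the others. What these arrays share was not tested. The labels state no pairing and the main model held none. With the replicate block 670 WT genes (342 higher, 328 lower) and 9 interaction genes were called.

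Of 2289 values of 109 called named genes under the alternatives other than another probe of the gene 2175 kept direction and call and 114 lost the call. By gene, 54 of the 109 kept the call under all of these alternatives. The call was lost for 53 genes under limma's treat and for 21 without background correction. Of 692 values of named genes that were not called, 6 became calls, for *Il18* under median scaling and *Nr1h3* without single arrays. By other probes the direction was reversed for *Ctsa* (-0.15, -0.056 and -0.074), *Fcgr2b* (-1.10) and *Stab1* (-0.82). In 19 further cases another probe kept the direction and lost the call, for *Apoc2*, *Birc5*, *Ccnd3*, *Cd63*, *Cd79b*, *Cp*, *Ctsa*, *Cxcr5*, *Gpnmb*, *Ifi205*, *Mcm6*, *Nab1*, *Tgfbr2* and *Tk1*, and a further call was made by another probe of *Lyz1* and *Pkm*.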
